A study of Mus musculus with 4 samples.

Results

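Luminal progenitor (LP) cells of the adult mouse mammary gland were compared between diestrus and estrus, phases of the ovarian cycle. Their cells were picked by the genes with at least 1 count: at least 3 of the 5 LP genes Cd14, Lalba, Plb1, Atp6v1b1 and Aldh1a3, at most 1 of the 6 mature luminal genes Stc2, Upk3a, Plac8, Tspan1, Prlr and Cited1, and at most 2 of the 7 basal genes Krt5, Krt17, Acta2, Myl9, Tagln, Mylk and Cnn1. This gave 323 LP cells of 2729 barcodes in estrus (11.8%, exact binomial interval 10.6% to 13.1%) and 283 of 2439 in diestrus (11.6%, 10.4% to 12.9%), in all 606 of 5168 adult barcodes and of 10596 barcodes in the series. The rule used measured counts, so the genes in it support nothing below. All intervals given here are 95% intervals and cover counting error only.

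Both libraries were made from FVB/NJ females, the strain given for every sample, and the adults were 10 weeks old. According to the methods, mice were staged by vaginal cytology, glands of a pair of mice were pooled for each phase, and CD24+ cells lacking CD31, CD45 and TER119 were sorted, so the animals of a pool cannot be separated. The cells went through the 10x Genomics Chromium 3′ assay, which counts molecules near the end of a transcript. A library from 5-week-old pubertal glands, with 1055 LP cells by the same rule, is given below as a further level only. As a phase was sampled by 1 library, differences could not be set against a spread between replicates, no p-value was computed, and phase, mice and library preparation cannot be told apart. The adult libraries shared 13 cell barcodes, of which 1 belonged to an LP cell in both.

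LP cells line the ducts on the inside, lack hormone receptors for the most part, and give rise to the alveolar cells that make milk in pregnancy and lactation. In diestrus progesterone is high, and the mature luminal (ML) cells that carry its receptor signal to their neighbours through secreted factors such as RANKL, which acts through RANK and NF-kB. LP cells transcribe milk protein and antimicrobial genes at a low level even before a pregnancy. Casein genes are classical targets of prolactin and STAT5, and chemokine and adhesion genes such as Cxcl2 and Icam1 are classical targets of NF-kB.

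The promoters of genes of both groups are shown because their levels differed between the phases, as given below. The windows run from 250 bases before to 50 bases after the start in RefSeq (build GRCm38.p6) and are written 5′ to 3′ along the gene. In the casein promoters, capitals mark TTCNNNGAA, the letters of a STAT-type site, searched on both strands. It was found in 8.30% of 32851 promoter windows of the same length.
Csn1s2a (chr5:87774200-87774499, + strand): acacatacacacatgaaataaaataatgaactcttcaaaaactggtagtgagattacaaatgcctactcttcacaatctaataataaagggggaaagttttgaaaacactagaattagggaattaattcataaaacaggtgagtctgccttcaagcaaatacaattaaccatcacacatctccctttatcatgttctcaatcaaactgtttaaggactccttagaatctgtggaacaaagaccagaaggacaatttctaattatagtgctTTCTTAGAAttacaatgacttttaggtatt
Csn2 (chr5:87699376-87699675, - strand): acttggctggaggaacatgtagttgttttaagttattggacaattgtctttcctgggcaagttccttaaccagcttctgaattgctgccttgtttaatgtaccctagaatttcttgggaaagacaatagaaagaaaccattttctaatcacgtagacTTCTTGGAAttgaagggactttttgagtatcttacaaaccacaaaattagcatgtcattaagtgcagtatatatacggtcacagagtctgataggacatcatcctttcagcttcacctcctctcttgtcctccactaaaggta
Csn1s1 (chr5:87665958-87666257, + strand): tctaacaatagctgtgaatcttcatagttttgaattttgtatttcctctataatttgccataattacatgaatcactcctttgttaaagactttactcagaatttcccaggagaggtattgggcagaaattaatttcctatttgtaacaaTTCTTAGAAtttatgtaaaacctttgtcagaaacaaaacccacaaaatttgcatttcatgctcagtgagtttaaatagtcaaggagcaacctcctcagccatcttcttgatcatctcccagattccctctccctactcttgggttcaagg
In the next promoters, capitals mark GGNNTTTCC, letters that fit many NF-kB sites, searched on both strands and found in 5.82% of the windows.
Cxcl2 (chr5:90903649-90903948, + strand): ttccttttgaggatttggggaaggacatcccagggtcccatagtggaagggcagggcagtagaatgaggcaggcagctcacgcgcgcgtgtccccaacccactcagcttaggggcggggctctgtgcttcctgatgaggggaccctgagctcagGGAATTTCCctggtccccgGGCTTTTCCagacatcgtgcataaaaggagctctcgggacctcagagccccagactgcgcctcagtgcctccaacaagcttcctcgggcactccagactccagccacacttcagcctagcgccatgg
Icam1 (chr9:21015690-21015989, + strand): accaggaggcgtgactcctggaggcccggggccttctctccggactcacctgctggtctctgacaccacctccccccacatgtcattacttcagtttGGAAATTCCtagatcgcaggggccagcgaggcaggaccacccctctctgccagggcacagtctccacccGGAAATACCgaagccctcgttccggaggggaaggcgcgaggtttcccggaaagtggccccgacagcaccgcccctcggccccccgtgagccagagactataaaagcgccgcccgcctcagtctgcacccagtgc
Tnfaip2 (chr12:111442411-111442710, + strand): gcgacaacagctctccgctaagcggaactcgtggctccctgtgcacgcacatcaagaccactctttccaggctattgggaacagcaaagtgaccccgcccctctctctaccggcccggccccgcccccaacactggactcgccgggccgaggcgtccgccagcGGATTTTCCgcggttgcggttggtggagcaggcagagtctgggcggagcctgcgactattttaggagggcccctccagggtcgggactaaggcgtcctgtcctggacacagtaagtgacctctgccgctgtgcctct
The casein windows each held 1 match, at -93 (Csn2) and -100 (Csn1s1) from the start and at 20 bases past it in Csn1s2a. The Cxcl2 and Icam1 windows each held 2 matches of the other motif, and the Tnfaip2 window held 1. The Icam1 window also held 1 match of the STAT-type letters, at -42. Of the other windows searched, Cxcl1 and Nfkbia each held 2 matches of the NF-kB letters, and Rspo1, Lao1, Cebpb, Wfdc18 and the milk gene Lalba held no match of either motif. A match describes these letters only and does not show a binding site.

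The label was checked on genes that the rule did not use. The 9 LP markers kept for this (Kit, Elf5, Csn3, Trf, Mfge8, Wfdc18, Ltf, Krt8 and Krt18) summed to 49617 CPM (counts scaled to a common library total) in LP cells of estrus and 30163 in diestrus, against 2351 and 1939 in basal cells, which were taken as cells with at least 4 of the 7 basal genes. In ML cells the same markers summed to 14573 and 11214 CPM, much nearer to the LP sums than the basal values were. Elf5, a transcription factor of the alveolar lineage, had a count in 257 of 323 estrus LP cells (79.6%) and 202 of 283 diestrus LP cells (71.4%). Kit, the receptor of stem cell factor, had a count in 14.2% and 16.6%. The hormone receptors were near 0, with 4 and 3 counts of Esr1 and 0 and 1 count of Pgr. Markers of immune cells summed to 0 and 0.655 CPM, those of fibroblasts to 4.47 and 1.96, those of endothelium to 9.69 and 17.0 and those of erythroid cells to 14.2 and 1.96. Ptprc was at 0 in both libraries.

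The diestrus LP cells had more counts per cell, at 4414 in the median cell, against 3664 in estrus, and 1568 genes detected, against 1338. The LP cells held 1513819 counts in diestrus and 1352551 in estrus. Just outside the rule, with 2 of the 5 LP genes and the other limits met, lay 177 cells in diestrus and 85 in estrus, and just inside, with 3 genes, lay 153 and 152. Of the genes that picked the cells, Aldh1a3 had a log2 ratio of -0.98, Lalba -0.66, Cd14 -0.50, Atp6v1b1 -0.45 and Plb1 0.35, diestrus to estrus. These values chose the cells and are given as a description.

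Counts were summed over the LP cells of each library, and the pair of sums was normalized by TMM to CPM. The log2 ratio was taken on CPM + 1, which understates the change of low genes. Of 2763 genes with at least 50 CPM in an LP sum, 219 were higher in diestrus by a log2 ratio of at least 1 (7.93%) and 93 were lower by as much (3.37%). The median ratio over all of them was 0.02. With the median ratio of genes of like transcript length taken off, 151 were higher and 107 lower. Most of the higher genes were not particular to LP cells: 176 of the 219 (80.4%) were past the same fold in basal cells, and 129 in basal and ML cells alike. Of the 93 lower genes, 29 (31.2%) were past the fold in basal cells and 14 in all 3 classes. A gene past the fold in LP cells was counted as not seen in basal cells when its basal ratio was under 0.5 in the same direction. That left 20 higher genes (0.724% of those tested) and 36 lower genes (1.3%). The limit was set on basal cells only: in ML cells 4 of the 20 and 3 of the 36 were past the fold the same way. Another 1 and 3 were past it the other way in ML cells. Of the 20, 12 had at least 50 CPM in a basal sum and 8 did not; of the 36, 9 did and 27 did not, so most of the lower genes were simply low in basal cells.

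**Figure D1:**
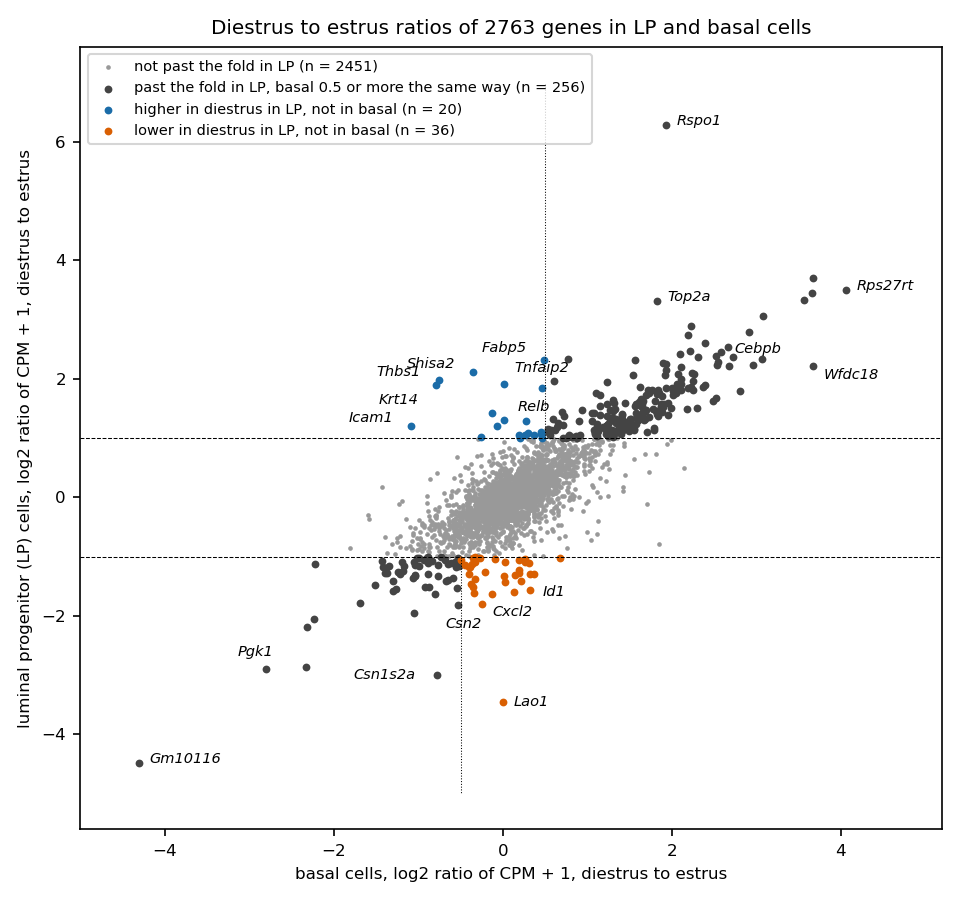
Log2 ratio of diestrus to estrus in LP cells (vertical axis) against the same ratio in basal cells (horizontal axis), 1 point for each of 2763 genes. Dashed lines mark the fold and dotted lines the basal limit of 0.5; the 20 blue genes and the 36 orange genes were past the fold in LP and not in basal cells, and the dark points are the genes past the fold in LP cells with a basal ratio of 0.5 or more the same way.

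At the edges of these limits, Auts2 (1.001) lay just inside the fold and Mt2 (0.9993) just outside it, and Atp6ap2 (-1.003) just inside and Socs3 (-0.997) just outside on the lower side. Fabp5, with a basal ratio of 0.48, lay just inside the basal limit and Kpnb1, with 0.53, just outside it. On the lower side Slc9a3r2 (basal ratio -0.45) was inside and Csn2 (-0.53) outside. Of the genes of the cell rule, the 5 LP genes and Prlr reached 50 CPM, and none of them was past the fold.

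Among the genes higher in diestrus LP cells and not in basal cells, the largest ratio was that of Fabp5, a carrier of fatty acids, which went from 32.1 CPM in estrus to 163 in diestrus (log2 ratio 2.31, interval of the ratio 1.88 to 2.85). It had a count in 27 of 323 estrus LP cells and 109 of 283 in diestrus. With each cell thinned to 2000 counts, which kept 288 and 264 cells and left out 35 and 19, the share was 4.17% and 22.0%. Basal cells held more of it in both phases, at 177 and 248 CPM, and ML cells held 0.524 and 7.15 (2.42, past the fold as in LP cells). Its diestrus level in LP cells was near the estrus level in basal cells, and its basal ratio (0.48) was the closest to the limit.

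Relb, a subunit of the alternative NF-kB pathway, was at 33.6 CPM in estrus and 83.2 in diestrus (1.28, interval 0.81 to 1.83). Its thinned share of LP cells was 5.21% in estrus and 13.6% in diestrus, against 5.95% and 6.33% of basal cells. Tnfaip2, a gene induced by tumour necrosis factor, went from 17.9 to 70.1 CPM (1.91, interval 1.32 to 2.67), with 1.24 and 1.27 CPM in basal cells. In ML cells Tnfaip2 was low and past the fold the other way, at 7.86 and 2.93 CPM (-1.17). On thinned counts its LP ratio was 0.91, short of the fold. Icam1, an adhesion molecule for leukocytes, went from 38.0 to 89.1 CPM in LP cells (1.21, interval 0.75 to 1.72). In basal cells Icam1 lay higher and moved the other way, from 562 to 264 CPM (-1.09), and in ML cells it was at 24.1 and 25.4. Tank, an adaptor that binds TRAF proteins, had 27.6 and 58.3 CPM (1.05). Cd47, the surface signal that holds off macrophages, was at 79.0 and 196 CPM (1.30), and a thinned share of 14.9% of LP cells in estrus and 28.4% in diestrus, whereas its basal level was 137 and 138 CPM. On thinned counts the Cd47 ratio was 0.96, and with at least 4 of the 5 LP genes required of a cell, Cd47 (0.98) and Icam1 (0.61) were short of the fold.

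Of the 22 genes of the RANK and NF-kB list, 7 passed the minimum of 50 CPM, and Relb alone was past the fold (14.3%, where 7.93% of all genes tested were higher). Nfkbia, the inhibitor that NF-kB itself induces, was at 2715 and 2510 CPM (-0.11), Nfkb1 had a ratio of -0.15, Rela -0.40 and Id2, a regulator downstream of RANK, -0.65. Of the 7, 3 had a ratio above 0 and 4 below it. Birc3 had a ratio of 0.22 and Nfkb2 0.83, which was 0.20 with at least 4 of the 5 LP genes required of a cell. The median of the 7 was -0.11, against 0.02 over all genes tested. Tnfrsf11a, which encodes RANK, had 20 counts in estrus and 17 in diestrus, too few to show a difference of this size (-0.39, interval -1.44 to 0.59). Its ligand gene Tnfsf11 had 0 and 2 counts in LP cells.

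Other genes of the higher set came from unrelated functions. Shisa2, which retains Wnt and FGF receptors in the endoplasmic reticulum, went from 12.7 to 58.3 CPM (2.12, interval 1.44 to 3.04), while in basal cells it was at 28.4 and 22.0. Thbs1, the matrix protein thrombospondin, went from 12.7 to 53.1 CPM in LP cells (1.98) and from 225 to 133 in basal cells (-0.76). Mthfs, an enzyme of folate metabolism, had 21.6 and 80.6 CPM (1.85). Cyba, the small subunit of the NADPH oxidase, had 186 and 401 CPM (1.11), and Trp53, which encodes the tumour suppressor p53, 91.7 and 191 (1.05). Gnl2, a nucleolar protein needed to export the large ribosomal subunit, had 29.1 and 68.1 CPM (1.20). 1110008L16Rik, an uncharacterized gene, had 23.1 and 63.5 CPM (1.42). On thinned counts 1110008L16Rik (0.87) and Cyba (0.96) were short of the fold.

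Krt14, a keratin of basal cells, was also in this set. It had 21 counts in estrus LP cells and 93 in diestrus (15.7 and 60.9 CPM, 1.89), spread over 17 and 44 cells, and 1 diestrus cell held 14 of the 93. In basal cells Krt14 went from 6641 to 3853 CPM (-0.79). The 7 basal genes of the rule, of which an LP cell may hold 2, summed to 55.9 CPM in LP cells of estrus and 76.6 in diestrus, and the 6 basal markers outside the rule, Krt14 included, to 48.5 and 92.3 CPM, against 14205 and 8878 CPM in basal cells. The part of basal RNA in the Krt14 value was not tested.

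**Figure D2:**
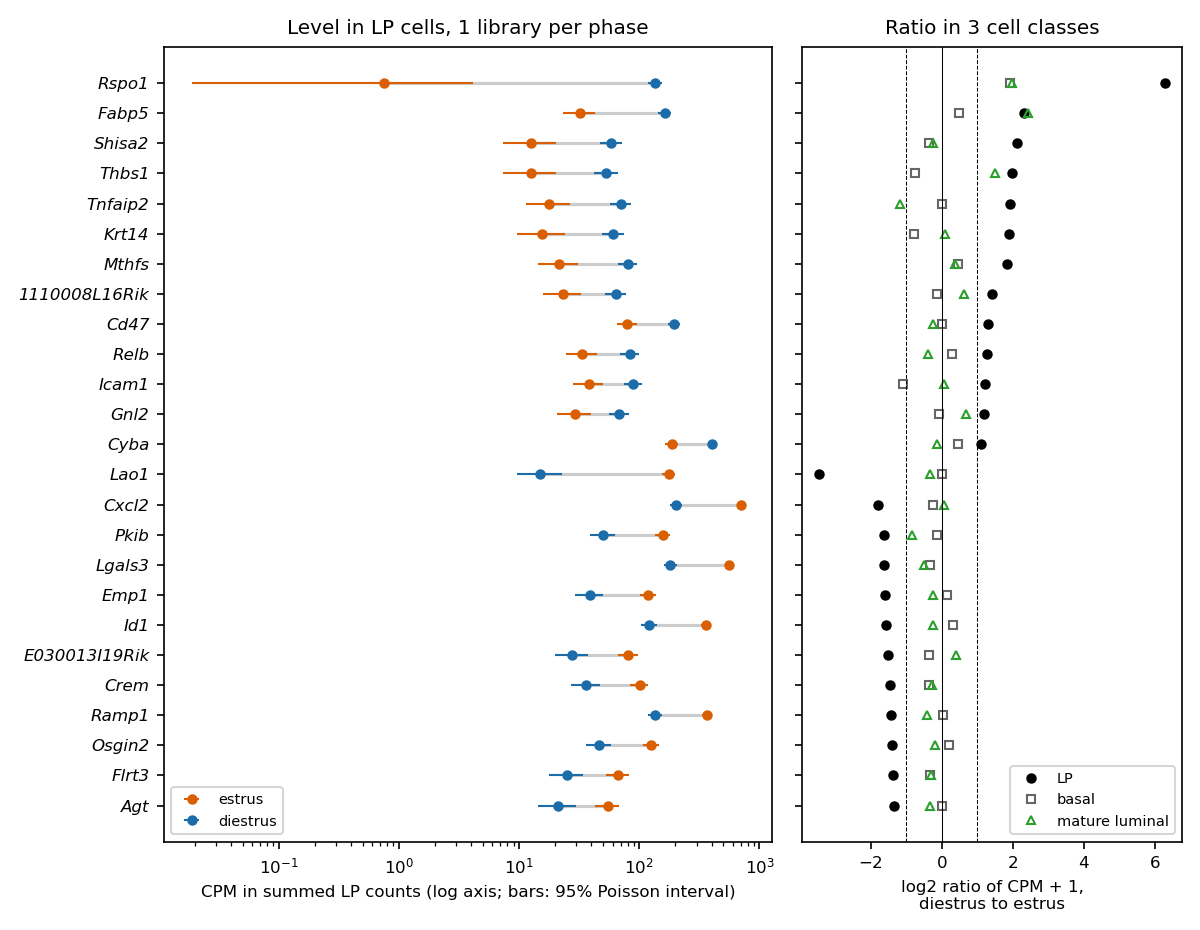
Left, CPM of each named gene in the LP sum of estrus (orange) and diestrus (blue), with 95% Poisson intervals, on a log axis. Right, log2 ratio of the same genes in LP (filled circles), basal (squares) and mature luminal cells (triangles). Rspo1 goes from 0.746 to 135 CPM, and Lao1 from 175 to 15.1.

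Rspo1 had the largest ratio of all genes tested. This secreted R-spondin, which strengthens Wnt signals through LGR receptors, had 1 count in the estrus LP cells and 206 in diestrus, in 66 of 283 cells (0.746 and 135 CPM, 6.28, counting interval of the ratio 5.01 to 12.81). It was 1.79 CPM in puberty and 0.207 and 3.60 CPM in basal cells, where the low level still gave a ratio of 1.93 and so kept it out of the set defined by the basal limit. Among diestrus LP cells, 42.4% of the Rspo1-positive and 7.83% of the other cells were called cycling, but the positive cells had a median of 7472.5 counts and the others 4022. After thinning, these shares were 28.6% of 35 cells (14.6% to 46.3%) and 6.55% of 229. Of the 24 genes of the R-spondin and Wnt list only Rspo1, Ctnnb1 (0.14) and Tcf7l2 (-0.77) reached 50 CPM. The receptor genes Lgr4 and Lgr5 had at most 3 counts in either LP sum.

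The genes lower in diestrus and not in basal cells were led by Lao1, an L-amino acid oxidase of milk that makes hydrogen peroxide. It had 235 counts in estrus and 23 in diestrus (175 and 15.1 CPM, -3.46, interval -4.23 to -2.92). Lao1 was found in 53 of 323 estrus LP cells and 11 of 283 in diestrus, and 1 estrus cell held 31 of the 235 counts. It was listed at 0 in basal cells of both libraries, and its level in pubertal LP cells was 353 CPM. The pubertal level did not lie on the same side for all genes of the lower set. That of Lgals3 (540 CPM) was near its estrus level of 559, and that of Pkib (55.3 CPM) near its diestrus level of 49.8.

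Cxcl2, a chemokine that attracts neutrophils, went from 703 CPM in estrus to 202 in diestrus (-1.80, interval -1.99 to -1.61), and its thinned share from 19.1% of LP cells to 11.4%. Lgals3, the lectin galectin-3, went from 559 to 181 CPM (-1.62), with 13.5 and 10.4 CPM in basal cells. Ramp1, which pairs with the calcitonin receptor-like receptor to bind CGRP, went from 366 to 135 CPM (-1.43, interval -1.68 to -1.20), and it was found in 144 of 288 thinned LP cells of estrus and 67 of 264 of diestrus (25.4%). In basal cells Ramp1 was at 79.8 and 81.2 CPM. Emp1, an epithelial membrane protein, had 119 and 38.6 CPM (-1.59), Flrt3, an adhesion protein, 66.4 and 24.9 (-1.38), and Agt, the precursor of angiotensin, 54.4 and 20.96 (-1.34). Scnn1b, a subunit of the epithelial sodium channel, had 142 and 57.6 CPM (-1.29), and Kcnk5, a potassium channel, 104 and 41.9 (-1.30). Cst3, the protease inhibitor cystatin C, had 17644 and 8248 CPM (-1.10). With at least 4 of the 5 LP genes required of a cell, Ramp1 (-0.94), Agt (-0.95), Flrt3 (-0.86) and Cst3 (-0.88) were short of the fold, and on thinned counts Scnn1b (-0.96) and Cst3 (-0.84).

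Id1, an inhibitor of DNA binding by helix-loop-helix factors, went from 358 to 121 CPM (-1.56, interval -1.82 to -1.32) and from a thinned share of 31.9% of LP cells to 15.5%. In basal cells Id1 was at 67.1 and 84.4 CPM, so only the LP value was past the fold. Pkib, an inhibitor of protein kinase A, had 157 and 49.8 CPM (-1.63), and Crem, a transcription factor that responds to cyclic AMP, 101 and 36.0 (-1.46). Osgin2 (125 and 46.5 CPM, -1.41) and the transcript E030013I19Rik (80.5 and 27.5 CPM, -1.52) complete the 12 lowest. Igfbp7, a binding protein of the insulin-like growth factor system, was past the fold in opposite directions in LP (-1.28) and ML cells (1.11), though in ML cells it had only 3.67 and 9.11 CPM.

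Of 21 listed milk genes 13 passed the minimum, and 5 of them were past the fold, all lower, where 3.37% of all genes tested were lower: Csn1s2a, Csn2, Btn1a1, Xdh and Csn3. Their median ratio was -0.91 in LP cells, -0.40 in basal and -0.33 in ML cells, beside medians over all genes tested of 0.02, 0.14 and 0.03. Without Lalba, whose counts helped to pick the cells, 5 of 12 were past the fold and the LP median was -0.93. Csn1s2a, a calcium-binding casein, went from 10428 CPM in estrus to 1309 in diestrus (-2.99, interval -3.06 to -2.93). Csn2, beta-casein, went from 6176 to 1758 CPM (-1.81), and Csn3, the kappa-casein that stabilizes the micelle, from 8046 to 3576 (-1.17). Csn1s1, alpha-casein, had 4002 and 2313 CPM (-0.79), and Lalba, the lactose synthase cofactor used by the rule, 4302 and 2729, given as a description. Btn1a1 and Xdh, which coat the milk fat globule, were at 491 and 190 CPM (-1.36) and at 68.6 and 27.5 CPM (-1.29). On thinned counts Csn3 (-0.92) was short of the fold, as was Btn1a1 (-0.91) with at least 4 of the 5 LP genes required of a cell. Trf, the iron carrier transferrin, had 21931 and 11662 CPM (-0.91), and Plin2, which coats lipid droplets, 1260 and 654 (-0.94). Muc1, a mucin of the luminal surface, was the member with the highest ratio, at 0.02.

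The casein difference lay in the amount per cell more than in the number of cells. Csn1s2a had a count in 136 of 323 estrus LP cells (42.1%) and 117 of 283 diestrus LP cells (41.3%), and after thinning in 40.6% (34.9% to 46.5%) and 34.1% (28.4% to 40.2%). Csn2 was found in 33.3% and 40.9% of thinned cells, a larger share in diestrus, although its level was lower there. In basal cells the thinned shares of Csn1s2a were 2.15% and 1.13%. Together the 4 caseins took 2.84% of all LP counts in estrus and 0.903% in diestrus, and the median cell had 0.914% and 0.531%. Caseins made up at least 5% of the counts in 30 of 323 estrus cells (9.29%, interval 6.35% to 12.99%) and 6 of 283 diestrus cells (2.12%, 0.782% to 4.56%). At least 10% was reached by 10 estrus cells and by 0 of 283 diestrus cells, which allows a share of up to 1.30%. The highest value was 43.3% in estrus and 8.30% in diestrus, and 1 estrus cell held 2589 of the 13984 Csn1s2a counts. Without the tenth of cells with the highest totals the Csn1s2a ratio was -1.83 and that of Csn2 -0.74, past the fold for the first and not for the second. Csn3 and Btn1a1 differed in detection as well, with thinned shares of 96.2% and 84.1% for Csn3 and 58.7% and 26.9% for Btn1a1.

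**Figure D3:**
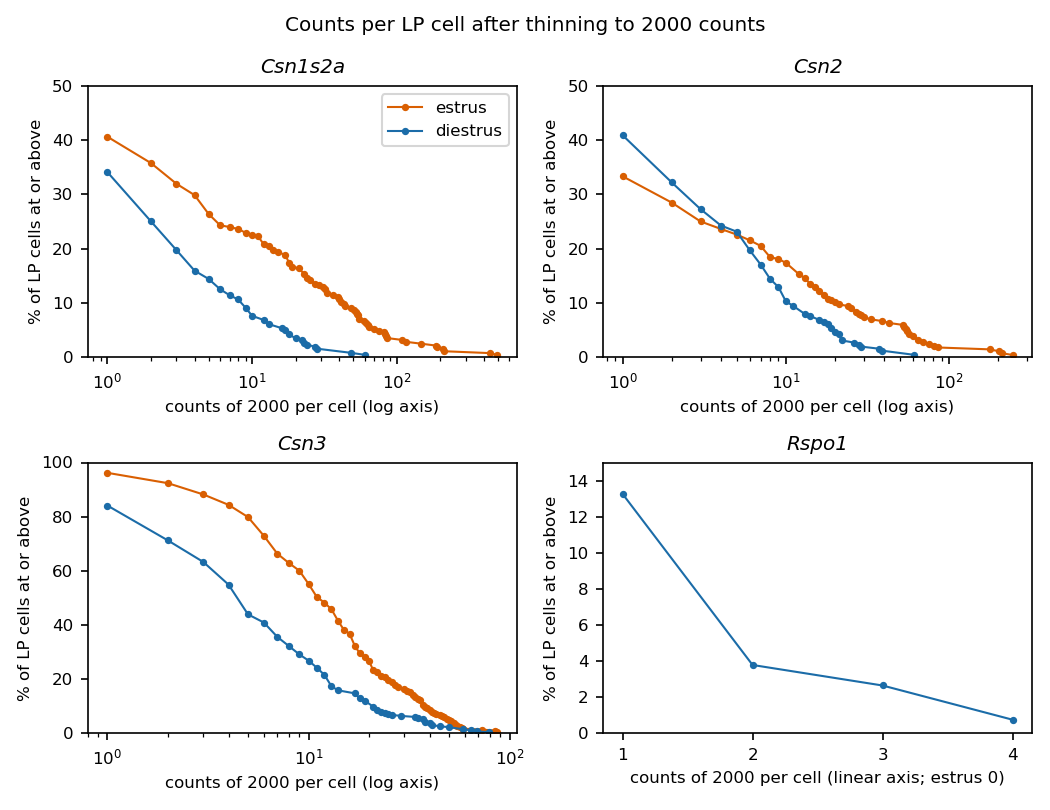
Percentage of LP cells with at least the given number of counts of a gene, after thinning each cell to 2000 counts, in 288 estrus cells (orange) and 264 diestrus cells (blue). The Csn1s2a curves start at 40.6% and 34.1% and separate towards high counts, the Csn3 curves differ from the first count on, and Rspo1 was present in 13.3% of diestrus cells and in no thinned estrus cell.

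Of 24 listed innate defence genes 11 passed the minimum, 2 were past the fold upwards and 2 downwards (18.2% each, where 7.93% and 3.37% of all genes tested were). The median was -0.53 in LP cells, 0.09 in basal and 0.59 in ML cells, and -0.61 in LP cells without Cd14, which the cell rule used. Besides Cxcl2, Ltf, the iron-binding lactoferrin, was lower in diestrus, at 2070 and 906 CPM (-1.19), and its thinned share was 48.3% of LP cells in estrus and 27.3% in diestrus. The basal ratio of Ltf was of like size (-1.39), at 38.7 and 14.2 CPM. Cxcl1, a relative and neighbour of Cxcl2 on chromosome 5, had 1455 and 728 CPM and a ratio just short of the fold (-0.997). Wfdc18, a small protease inhibitor, was higher in diestrus, at 632 and 2932 CPM (2.21), but so it was in basal (3.67) and ML cells (3.31), where it was at most 54.0 and 50.4 CPM. C3, the central complement protein, had 41.0 and 102 CPM in LP cells (1.30), and its basal ratio was 1.67. Lcn2, which binds bacterial siderophores, had a ratio of -0.53. On thinned counts the Ltf ratio was -0.92, short of the fold. The NF-kB motif letters printed above were thus present in the promoters of Cxcl2, which was lower in diestrus LP cells, of Icam1 and Tnfaip2, which were higher, and of Nfkbia, whose ratio was -0.11.

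Of the 20 genes listed as transcription factors of the lineage, with Kit, 12 passed the minimum and 1, Cebpb, was past the fold (8.33%, near the 7.93% of all genes tested). Cebpb, a factor required for alveolar development, went from 56.7 to 269 CPM in LP cells (2.23), with ratios of 2.54 in basal and 1.42 in ML cells. Elf5 went from 591 to 354 CPM (-0.74, interval -0.90 to -0.58), Runx1 had -0.86, Elf3 -0.69, Gata3 -0.62 and the Notch target Hey1 -0.47. Sox10 (-0.07), Ehf (-0.10) and Tfap2c (0.04) were level. The list median was -0.34, and -0.29 in basal cells.

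Cell cycle genes were higher in diestrus LP cells, and in basal cells too. Cells called cycling, with at least 3 of 10 cell cycle genes, were 13 of 323 LP cells in estrus (4.02%, 2.16% to 6.78%) and 45 of 283 in diestrus (15.9%, 11.8% to 20.7%). In basal cells the shares were 5.21% and 21.4%, and in ML cells 7.89% and 11.1%. These calls used all counts, and called LP cells had medians of 11019 and 9703 counts, against 3529.5 and 4083.5 in the others. After thinning, 5 of 288 estrus and 25 of 264 diestrus LP cells were called. Of 12 S phase genes that passed, 9 were past the fold, all higher, where 7.93% of all genes tested were higher. Their median was 1.35 in LP, 1.23 in basal and 0.47 in ML cells. Rrm2, a subunit of ribonucleotide reductase, went from 13.4 to 54.4 CPM (1.94) and Mcm6, of the replicative helicase, from 28.3 to 83.2 (1.52). Of 12 genes of G2 and M phase, 6 were past the fold, all higher, with medians of 1.09, 1.43 and -0.22. With at least 4 of the 5 LP genes required of a cell, the LP median of G2 and M phase was 0.36. Ube2c (0.36), Birc5 (0.63) and Hmgb2 (0.75) were then short of the fold. So were the S phase genes Rrm2 (0.71), Mcm6 (0.92) and Mcm7 (0.96), while Tk1 (1.19), Tyms (1.07) and Rrm1 (1.06) stayed past it. Top2a, a topoisomerase of dividing cells, went from 7 counts to 93 (5.22 and 60.9 CPM, 3.32), and Cdk1, the mitotic kinase, from 21.6 to 107 CPM (2.25). Ccnd1, which encodes cyclin D1, had 160 and 313 CPM (0.97, 1.99 in basal cells) and Cdkn1a, the inhibitor p21, 542 and 303 (-0.84, -1.22 in basal cells). The cycling call used genes of the S phase and the G2 and M phase lists, Tyms and Top2a among them. Leaving out the called cells therefore lowers the medians of those lists in part by selection. Without the cells called cycling, the S phase median was 0.37 and that of G2 and M phase 0.42. The median of the milk genes was then -0.67 and that of innate defence -0.17, and the genes lower in LP and not in basal cells numbered 20 in place of 36, of which 16 were shared. The ratios of Lao1 (-3.21), Cxcl2 (-1.73), Fabp5 (2.31) and Relb (1.23) stayed past the fold without those cells, while Csn3 (-0.83), Btn1a1 (-0.95), Xdh (-0.85), Ltf (-0.78), Cst3 (-0.83), Scnn1b (-0.89), Agt (-0.96), Trp53 (0.90) and Cdk1 (0.99) did not. Of the 5 milk genes past the fold, Csn1s2a (-2.91) and Csn2 (-1.67) remained past it.

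**Figure D4:**
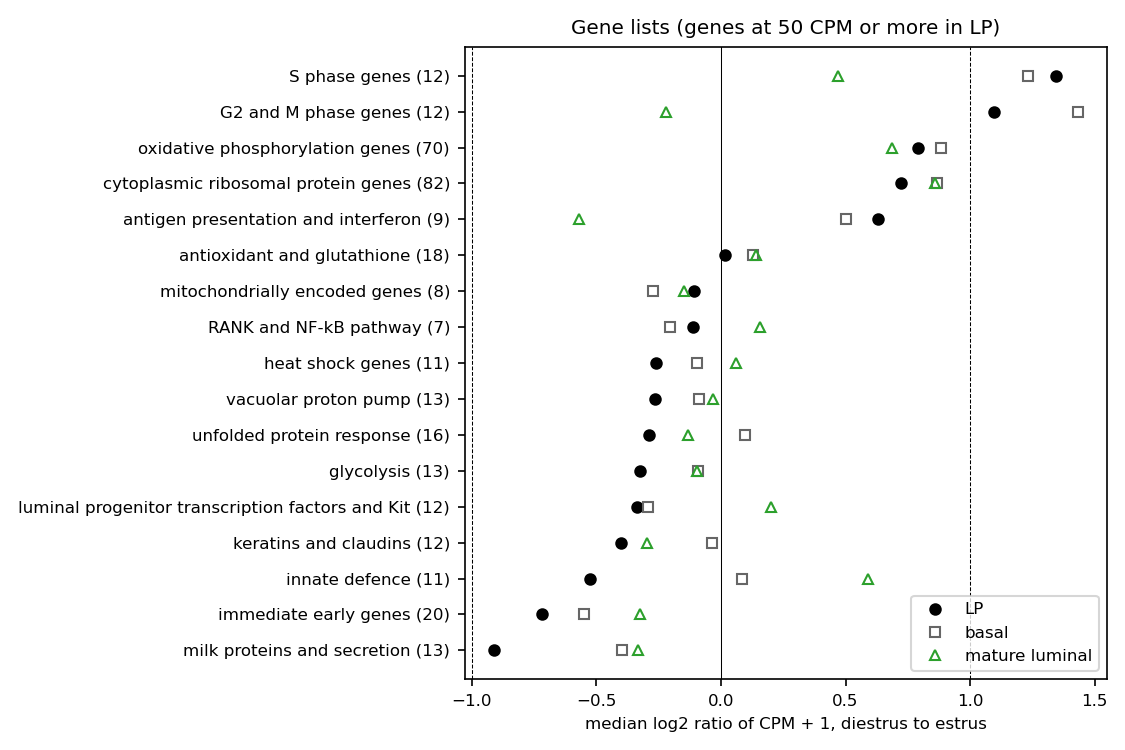
Median log2 ratio of each gene list in LP (filled circles), basal (squares) and mature luminal cells (triangles), with the number of genes at 50 CPM or more in LP given in brackets. Milk genes have the lowest LP median (-0.91) and S phase genes the highest (1.35); the basal medians of ribosomal (0.87) and oxidative phosphorylation genes (0.88) lie beside the LP medians (0.72 and 0.79). Lists with at least 7 such genes are drawn.

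Immediate early genes respond to stimulation and also to tissue dissociation. Of 20 that passed the minimum, 1, Jund, was past the fold (3073 and 1194 CPM, -1.36, with -1.06 in basal cells), a share near the 3.37% of all genes tested, and 19 had a ratio below 0. The median was -0.72 in LP, -0.55 in basal and -0.32 in ML cells. Fos was at 8544 and 4986 CPM (-0.78), Junb at 8915 and 4855 (-0.88) and Atf3 at 1988 and 1013 (-0.97). Hspa1a, an inducible heat shock protein, had 317 and 91.7 CPM (-1.78, with -1.69 in basal cells), but on thinned counts its LP ratio was -0.92, short of the fold. How much of the LP differences moved with dissociation was not tested.

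Of 12 keratin and junction genes that passed the minimum, 1 was past the fold, Krt14, which was higher (8.33%, near the 7.93% of all genes tested). Another 9 had a ratio below 0, none of them past the fold. Krt18 had 7971 and 4836 CPM (-0.72), Krt8 3890 and 2919 (-0.41), Epcam 3505 and 2163 (-0.70) and Cldn4, a claudin of tight junctions, 993 and 548 (-0.86). The basal ratios of Krt18 (-0.79) and Krt8 (-0.49) were alike, while Epcam (-0.12) and Cldn4 (0.11) were level in basal cells. In the vacuolar proton pump, which acidifies vesicles, the subunit gene Atp6v1c2 was higher (36.5 and 75.3 CPM, 1.02) and the accessory subunit gene Atp6ap2 lower (254 and 126 CPM, -1.003), and the other 11 that passed were within the fold. That was 7.69% each way, where 7.93% of all genes tested were higher and 3.37% lower.

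Very short transcripts were higher in diestrus in every class. Genes with a median transcript length under 500 bases (86 genes) had a median ratio of 1.30 in LP, 1.30 in basal and 1.04 in ML cells, and 53.5% of them were past the fold upwards in LP. For 3000 to 5000 bases (256 genes) the LP median was -0.17. Of the 129 genes higher in all 3 classes, 109 were shorter than 1000 bases, against 6 of the 20 higher in LP and not in basal cells. Among all 2762 genes tested with a length, 86 were under 500 bases and 853 from 500 to under 1000, so the 6 of 20 lay near the share over all genes. Ribosomal protein genes (31 of 82 past the fold upwards, 1 downwards, median 0.72) and oxidative phosphorylation genes (29 of 70 upwards, median 0.79), where 7.93% of all genes tested were higher, had basal medians of 0.87 and 0.88. Rpl41, a tiny ribosomal protein, went from 784 to 5430 CPM (2.79) and Tmsb10, which binds actin monomers, from 113 to 753 (2.73). The genes with the largest ratios in all 3 classes, after Rspo1, included Gm10116 (-4.48), Gm10263 (3.70), Rps27rt (3.49) and Rps26-ps1 (3.45). All 4, and Rpl41 and Tmsb10, had at least 20% of the last 300 bases in transcripts of other genes, so reads could be split among copies and their values are uncertain. Of the 219 higher genes 46 had such an end, and of the 93 lower genes 12, where 190 of all 2763 genes tested did (6.88%). The part of transcript length and library preparation in the phase difference was not tested.

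**Figure D5:**
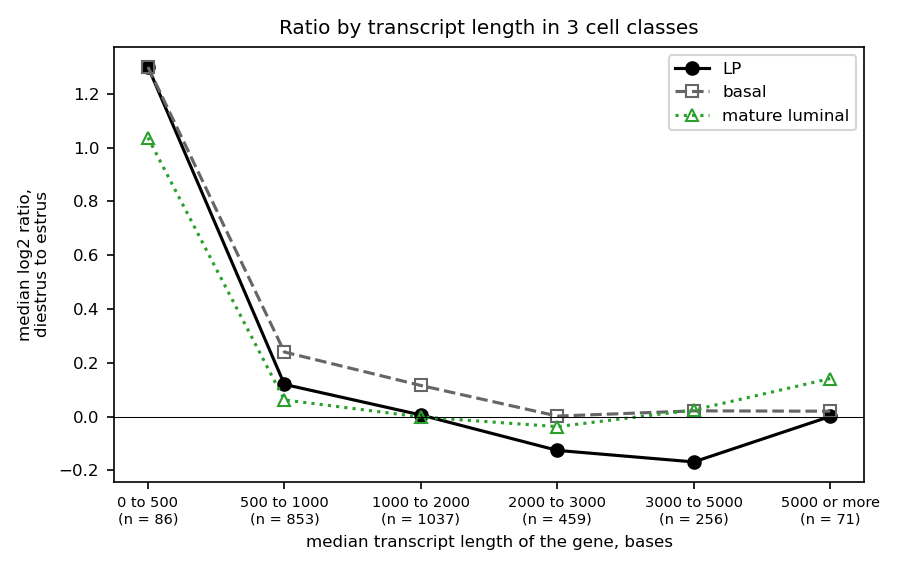
Median log2 ratio, diestrus to estrus, of genes grouped by median transcript length in bases, in LP, basal and mature luminal cells. All 3 classes are highest under 500 bases (1.30, 1.30 and 1.04) and lie between -0.17 and 0.24 in the longer groups.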

How the data were processed

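The authors sequenced sorted mammary epithelial cells of FVB/NJ mice and made the deposited gene-by-cell tables with Cell Ranger 2.0 on mm10, per the labels and methods. The deposited values were whole-number counts per gene and cell, with no normalization. Of the 2 puberty tables, which share 5387 barcodes, 1 was used.

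LP, basal and ML cells were picked by counts of rule genes (ML by the mirrored rule). No doublet caller was run, and the limits on genes of other classes stood in for one. Counts were summed per class and library and scaled by TMM (Python 3.11.15, numpy 2.4.6, checked against edgeR 4.0.16 in R 4.3.3) to CPM, each class on its own. A gene needed 50 CPM in an LP sum, and past the fold meant a log2 ratio of at least 1 with 1 CPM added to both values. Intervals are exact Poisson or binomial (scipy 1.17.1). Shares were also taken after thinning cells to 2000 counts. With 1 library per phase there was no test, and intervals and limits of a count of 0 cover counting error only. The scripts were tested on simulated data.

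The text names the 12 genes with the largest ratios each way that were past the fold in LP and not in basal cells (genes with a shared 3′ end left out), listed genes past the fold, the largest ratios past the fold in all 3 classes, and others chosen after their values were seen. The members and lists were chosen with earlier results of these data known. Other scalings, minimums, pseudocounts, cell rules and cell filters were tried.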

Additional observations from a re-analysis of the deposited data

Results flagged for a closer look

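Icam1 had a log2 ratio of 1.21 in LP cells and -1.09 in basal cells, diestrus to estrus, so the classes moved in opposite directions between the same libraries. With at least 4 of the 5 LP genes required of a cell the LP ratio was 0.61. The difference was not tested, since each phase had 1 library. After thinning to 2000 counts Icam1 was found in 4.17% and 12.5% of LP cells and in 64.0% and 36.3% of basal cells, estrus and diestrus.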

How the results depend on the processing

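The counts of 219 higher and 93 lower genes became 538 and 336 with a minimum of 10 CPM and 1356 and 884 with no minimum, which adds genes with few counts. The 20 genes higher in LP and not in basal cells became 151 and 732 under those minimums, 31 without TMM and 43 with a basal limit of 1. The 36 lower genes became 176 and 552, 64 with that basal limit and 60 where the limit was applied only to genes with 50 CPM in basal cells. Without cycling cells the lower genes numbered 57 in LP and 20 in LP and not in basal cells, and the cause was not tested. Where the cells themselves were altered, fewer of the same genes remained. After thinning these were 9 of the 20 and 22 of the 36. They were 9 and 18 with at least 4 of 5 LP genes, 17 and 32 with at least 2, and 12 and 16 without cycling cells. Without the tenth of cells with the highest totals they were 15 and 19. With the cells unaltered, 15 and 21 remained after a trend with transcript length was removed. Removing that trend turned the sign of 8 of 177 named ratios, of which Psmb9 (-0.00372) had been past the fold. Of 95 named ratios past the fold, 32 fell short of it with at least 4 LP genes, 30 without cycling cells and 20 after thinning. The median of the milk list stayed between -1.02 and -0.595 under the alternatives run, while that of innate defence ran from -0.712 to 0.00461, the latter with no minimum. The median of G2 and M phase genes went from 1.09 to 0.359 with at least 4 LP genes, that of the IGF list from -1.02 to -0.109 with no minimum, and that of the cholesterol list from -0.657 to 0.540 with a minimum of 10 CPM, where more genes of these lists pass. The length trend, the 50 CPM condition on the basal limit and a limit on the difference between LP and basal ratios (16 higher and 26 lower genes) were chosen after seeing the data. No paired analysis was possible because each phase had 1 library, and for the same reason no replicate could be left out. Depth limits genes under about 50 CPM, such as Tnfrsf11a, whose 20 and 17 counts allow a ratio from -1.44 to 0.59.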

Other observations

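Over all genes tested, 7.93% were past the fold upwards and 3.37% downwards. Of 13 glycolysis genes that passed the minimum, Pgk1 (-2.89) and Eno1 (-1.01) were past the fold, both lower (15.4%). Eno1 had ratios of like size in basal (-0.89) and ML cells (-0.91), and 1 of the 13 genes was past the fold downwards in basal cells. Of 9 antigen presentation and interferon genes Psmb9 (1.18) was past it (11.1%), and the list median was 0.63 in LP, 0.50 in basal and -0.57 in ML cells. In the unfolded protein response Dnajb9 (-1.31) was the only one of 16 past the fold (6.25%), and among 3 genes of cholesterol and fatty acid synthesis Srebf1 (-1.16) was. In basal cells 1 of the 16 was past the fold upwards and 2 downwards. The heat shock chaperonin gene Hspe1 was higher (1.47), as was the metallothionein gene Mt1 (1.13). Of the 11 heat shock genes that passed, 1 was past the fold upwards and 2 downwards in basal cells. Of the 8 mitochondrially encoded genes none was past the fold.

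Among LP cells with Csn1s2a, 91 of 136 also held Csn2 in estrus (66.9%) and 93 of 117 in diestrus (79.5%).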
